A study of Mus musculus with 11 samples.

Results

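Runx1 and Runx3 encode DNA-binding proteins of the RUNX family, and the peaks of acetylated chromatin and of cohesin at both gene loci were described in mouse thymocytes with and without Rad21. The members were all peaks of 6 deposited lists that overlap chromosome 16 from 92550000 to 93100000 (Runx1 and the intervals upstream of it) or chromosome 4 from 134620000 to 134780000 (Runx3), in build mm9. There were 147 such peaks among 120616 in all, 114 at Runx1 and 33 at Runx3. The cells were CD4+ CD8+ (double positive) thymocytes sorted by flow cytometry from mice aged 6 weeks. In the knockout group (KO, Rad21-/-) a loxP-flanked Rad21 allele was deleted by a Cre transgene under control of Cd4, and the wild-type group (WT) consisted of control littermates. Whether the controls carried the loxP-flanked allele or the transgene is not given in the labels, and the loss of Rad21 was not checked because peak lists hold no transcript or protein level. Histone H3 acetylated at lysine 27 (H3K27ac), found on enhancers and promoters in use, was profiled by chromatin immunoprecipitation and sequencing (ChIP-seq) in 2 WT and 2 KO libraries. Smc1a, a core subunit of the cohesin ring, was profiled in 2 WT libraries, and Smc1a in KO cells was not analysed here. The 5 input libraries were not analysed here.

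RUNX proteins bind DNA through their Runt domain as a complex with the partner Cbfb. Runx1 is needed for the formation of blood stem cells and for early T cell development, where it represses Cd4 in CD4- CD8- thymocytes. Runx3 is best known for silencing Cd4 in cells that become cytotoxic CD8+ T cells, a fate taken after the double positive stage. Each gene is transcribed from a distal and a proximal promoter. Rad21 closes the cohesin ring, which holds sister chromatids together and forms chromatin loops.

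The promoter sequences of both genes are shown first because they hold a feature that the choice of loci did not use. RefSeq (build GRCm38.p6) lists 2 starts for each gene, Runx1 on the minus strand of chromosome 16 and Runx3 on the plus strand of chromosome 4. The 300-base window around the upstream start of each gene held the RUNX recognition core ACCACA in tandem, spaced as ACCACANNACCACA, and the downstream start did not. The pair began at base 29 counted from the start in Runx1, and 134 bases before the start in Runx3. The related gene Runx2 (chromosome 17, minus strand) carried it at base 24 from its single listed start. The 30 bases around the pair are given 5′ to 3′, with both cores in capitals.
Runx1 upstream start: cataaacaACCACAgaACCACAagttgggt
Runx3 upstream start: gtccctcaACCACAgaACCACAaggccagg
Runx2: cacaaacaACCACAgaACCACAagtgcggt
A search of both strands found the tandem pair in 7 of 32851 promoter windows of this length (0.0213%), while a single ACCACA occurred in 16.8% of them. The 7 windows include those of Runx1, Runx2 and Runx3 and that of Gm16225, whose window overlaps the Runx3 window. The search was not among the planned results, and other spacings or arrangements of the core were not counted. The share therefore describes this pattern and does not test it. A match describes these letters and is not evidence of binding.

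The starts of each gene also differed in base composition. To show this, the 250 bases before each start are given 5′ to 3′ on the strand of the gene, with each CG dinucleotide in capitals.
Runx1 upstream start: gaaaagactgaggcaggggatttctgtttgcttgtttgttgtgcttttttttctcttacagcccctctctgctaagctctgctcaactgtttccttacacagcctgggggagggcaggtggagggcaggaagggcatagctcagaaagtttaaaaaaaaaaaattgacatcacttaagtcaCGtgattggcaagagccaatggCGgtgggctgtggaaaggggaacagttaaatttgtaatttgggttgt
Runx1 downstream start: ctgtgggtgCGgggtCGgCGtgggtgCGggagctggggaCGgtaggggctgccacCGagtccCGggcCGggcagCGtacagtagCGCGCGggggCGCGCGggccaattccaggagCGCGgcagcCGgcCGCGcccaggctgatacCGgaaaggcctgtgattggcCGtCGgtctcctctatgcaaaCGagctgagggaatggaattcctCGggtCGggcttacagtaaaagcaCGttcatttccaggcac
Runx3 upstream start: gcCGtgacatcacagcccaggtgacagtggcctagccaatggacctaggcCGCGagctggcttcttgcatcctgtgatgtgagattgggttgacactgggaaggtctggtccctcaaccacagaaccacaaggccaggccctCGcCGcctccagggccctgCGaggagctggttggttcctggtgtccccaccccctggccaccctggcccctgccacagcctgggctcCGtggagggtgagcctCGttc
Runx3 downstream start: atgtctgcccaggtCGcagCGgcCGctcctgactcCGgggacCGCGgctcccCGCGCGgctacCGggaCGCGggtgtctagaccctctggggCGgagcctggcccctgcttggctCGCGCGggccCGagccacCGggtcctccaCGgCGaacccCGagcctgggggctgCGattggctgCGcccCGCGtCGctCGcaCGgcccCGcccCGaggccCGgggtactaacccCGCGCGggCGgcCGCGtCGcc
At Runx1 the upstream sequence had 2 CG dinucleotides and a GC content of 45.6%, against 27 and 67.6% at the downstream start. At Runx3 the values were 8 and 65.2% against 38 and 78.8%. These sequences come from another build than the peaks, so no peak was placed on either start. In the GRCm38.p6 gene order the nearest protein-coding neighbours are Clic6 and Setd4 for Runx1 and Syf2 and Clic4 for Runx3. No mm9 annotation was used here. Peaks are therefore given by position and were not assigned to promoters, exons, introns or neighbouring genes, and the sorted cell type was not checked against marker genes.

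The peak lists held 15686 to 21973 H3K27ac peaks and covered 45.6 to 56.3 Mb per library, with the fewest peaks and the shortest total in WT replicate 2. The lists hold no reads, so depth is unknown. The measure used below is the covered length, the number of bases under called peaks, and a base without a peak is a missing call rather than a measured absence of acetylation. Each peak has a score of the authors' caller, starting at about 50 in each list and often tied at 3100, and it was used to rank peaks within a list. In such bulk samples fewer acetylated cells and less acetylation per cell cannot be told apart. Separate mice per library are not named in the labels, so p-values compare these libraries alone, and differences between libraries may be technical.

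Runx1 lay in a more densely acetylated stretch than Runx3. H3K27ac peaks covered 11.8% to 16.1% of the Runx1 window and 4.84% to 7.0% of the Runx3 window per library. Peaks that overlapped in any of the 4 H3K27ac libraries were merged into regions, numbered along each locus from low to high coordinate, 18 at Runx1 and 6 at Runx3. The regions had a median length of 4066.5 bp at Runx1 and 1947 bp at Runx3, and the longest measured 18647 bp and 2697 bp. All 4 libraries had a peak at 12 of the 18 Runx1 regions and 4 of the 6 Runx3 regions, and over the genome this held for 49.6% of 24430 regions. Every H3K27ac library had 2 to 4 peaks with a score of 3100 at Runx1 and none at Runx3.

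**Figure D1:**
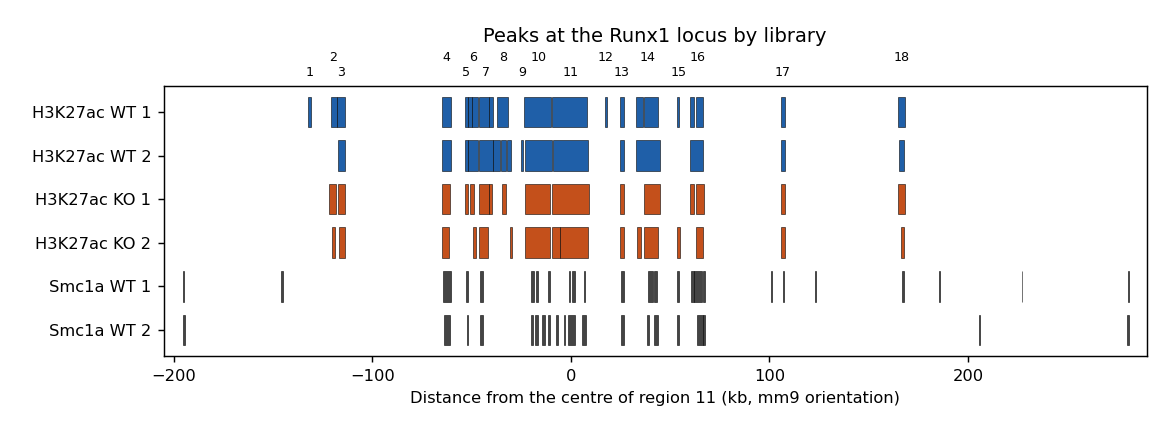
Called peaks at the Runx1 locus, 1 row per library, plotted by distance in kb from the centre of region 11; numbers above mark the 18 merged H3K27ac regions, blue is WT, orange KO and grey Smc1a. Regions 10 and 11 are filled in all 4 H3K27ac rows, while regions 5 to 8 are filled further in both WT rows than in the KO rows. In WT replicate 1, region 8 is covered over 5466 of its 9757 bp.

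At the Runx1 locus less chromatin was called acetylated in both KO libraries than in either WT library. The covered length was 88.5 kb in WT replicate 1, 88.4 kb in WT replicate 2, 75.1 kb in KO replicate 1 and 64.8 kb in KO replicate 2. The WT values differed by less than the KO values did, and the groups did not overlap. The means were 88.4 ± 0.0537 kb in WT and 70.0 ± 7.28 kb in KO (SD, n = 2 each), a difference of -20.9%. A two-sided exact permutation test gave p = 0.3333, the smallest that 2 libraries against 2 allow. Relative to all bases under peaks in the same list, the locus took 0.157% and 0.194% in WT and 0.143% and 0.136% in KO, again without overlap (exact permutation p = 0.3333). Peak numbers overlapped between the genotypes, with 21 and 16 peaks in WT and 16 and 16 in KO. Per 10000 peaks of the list they were 9.56 and 10.2 in WT and 8.20 and 7.90 in KO and did not overlap (exact permutation p = 0.3333).

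**Figure D2:**
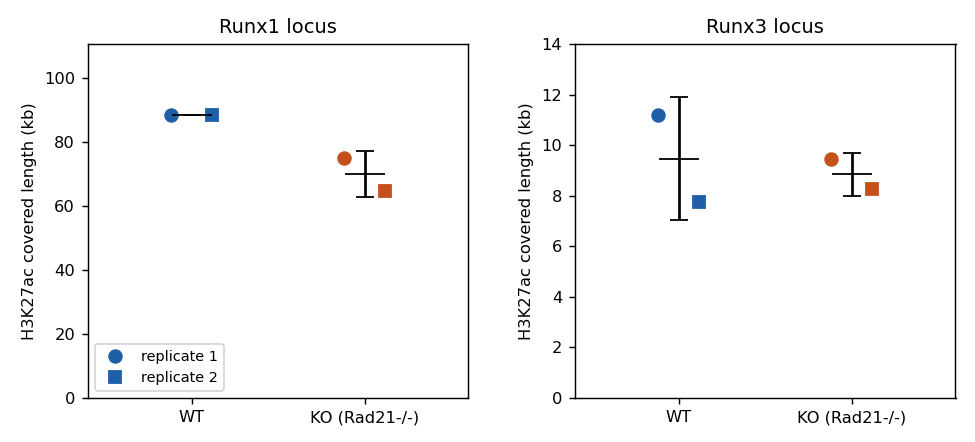
H3K27ac covered length in kb at the Runx1 and Runx3 loci in WT and KO libraries; circles are replicate 1, squares replicate 2, the horizontal bar is the mean and the whiskers 1 SD (n = 2). At Runx1 both KO values (75.1 and 64.8 kb) lie below both WT values, and at Runx3 the genotypes overlap.

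The difference was uneven along the locus, and the pair of longest regions differed little in length. Region 11 (92751860 to 92770506), the longest of the locus and 125th by length of the 24430 regions of the genome, was covered over 17724 and 17682 bp in the WT and 18639 and 17633 bp in the KO libraries. The genotypes overlapped there. Region 10 (92737663 to 92751739, 240th by length) was covered over 13443 and 13593 bp in the WT and 12666 and 12633 bp in the KO libraries. Both KO values were below both WT values, with a mean difference of -868.5 bp or -6.42%. Taken as a pair, these regions held 31167 and 31275 bp in the WT and 31305 and 30266 bp in the KO libraries. They carried 2.36% of the locus difference, and the other 16 regions carried 97.6%.

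Most of the missing length lay beside region 10, between 92707706 and 92737150. Regions 5 to 9, which fill this interval, were covered over 19251 bp in WT replicate 1 and 23731 bp in WT replicate 2. KO replicate 1 covered 11649 bp and KO replicate 2 covered 7478 bp. Both KO libraries lay under both WT libraries, and the mean differed by -55.5%, which makes 64.6% of the locus difference. These 5 regions were singled out after their values were seen.

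Region 8 (92722010 to 92731766) showed the largest difference in length of the regions at both loci. It was covered over 5466 and 8729 bp in the WT and over 1901 and 1189 bp in the KO libraries, a mean difference of -5552.5 bp (-78.2%). The KO peaks were also low in their lists, with best scores of 91.22 and 50.59, at the 19.1 and 0.514 percentiles. The WT peaks had best scores of 418.37 and 305.16, at the 60.6 and 59.0 percentiles. The peaks of the KO libraries did not meet each other, since that of KO replicate 1 spanned 92726543 to 92728443 and that of KO replicate 2 spanned 92730578 to 92731766.

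Region 6 (92709556 to 92714575) was covered over 4966 and 4955 bp in the WT and over 1943 and 1524 bp in the KO libraries (-65.1%). Its best scores were 330.59 and 299.36 in WT and 171.60 and 90.05 in KO. In region 14 (92793908 to 92805955), on the other side of region 11, WT libraries covered 10584 and 12048 bp and KO libraries 7915 and 8627 bp (-26.9%). In regions 6, 8 and 14 alike, both KO values lay below both WT values. Together these 3 regions carried 64.0% of the locus difference. They were selected by the size of the difference, so these values describe them and do not test it.

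Region 7 (92714713 to 92721892) lay between regions 6 and 8 and had the tied score of 3100 in all 4 libraries. It was covered over 7004 and 7041 bp in WT, 6712 bp in KO replicate 1 and 4765 bp in KO replicate 2. Region 5 (92707706 to 92709520) had peaks of 1815, 1766 and 1093 bp in the WT libraries and KO replicate 1, and no peak in KO replicate 2. Its best scores were 129.03, 88.83 and 53.20, so the last was near the minimum of its list.

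The regions at the ends of the acetylated stretch were called in every library. Region 4 (92696336 to 92700752) was covered over 4202 and 4340 bp in the WT and 3799 and 3422 bp in the KO libraries, with the KO values lower. Region 16 (92821200 to 92828375) was covered over 5322 and 6664 bp in the WT and 5896 and 3215 bp in the KO libraries, where the genotypes overlapped. Best scores ran from 1134.52 to 2772.98 in region 4 and from 1392.64 to 2905.01 in region 16. The isolated regions at higher coordinates had 2008, 1838, 1859 and 1846 bp for WT replicates 1 and 2 and KO replicates 1 and 2 in region 17 (92867016 to 92869023). Region 18 (92925813 to 92929619) had 3527, 2551, 3535 and 1553 bp in the same order. Neither separated the genotypes.

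Over all 18 Runx1 regions, both KO libraries covered fewer bases than both WT libraries in 9 regions and more bases in none. At Runx3 the numbers were 2 and 1 of 6. Over all regions of the genome the shares were 15.9% for fewer and 17.0% for more bases. Long regions shared by all libraries were narrower in KO more often, in 22.9% of the 12129 regions called in all 4 libraries and in 38.5% of the 2306 of these that measured 5000 bp or more (wider in 9.32%). At Runx1, 5 of the 7 regions of that kind were narrower and none was wider. At Runx1, 8 of the 12 regions called in all 4 libraries were narrower, and the median change of the 12 was -15.9%. The 4 such regions of Runx3 had a median change of -15.1%, and those of the genome -1.63%. Their median lengths were 6098 bp at Runx1, 2207.5 bp at Runx3 and 2922 bp over the genome. The regions of a locus share their neighbourhood and their libraries and are not independent of each other. No region at either locus was called in both libraries of 1 genotype and in neither of the other. Over the genome such regions made up 2.33% (WT only) and 2.82% (KO only).

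**Figure D3:**
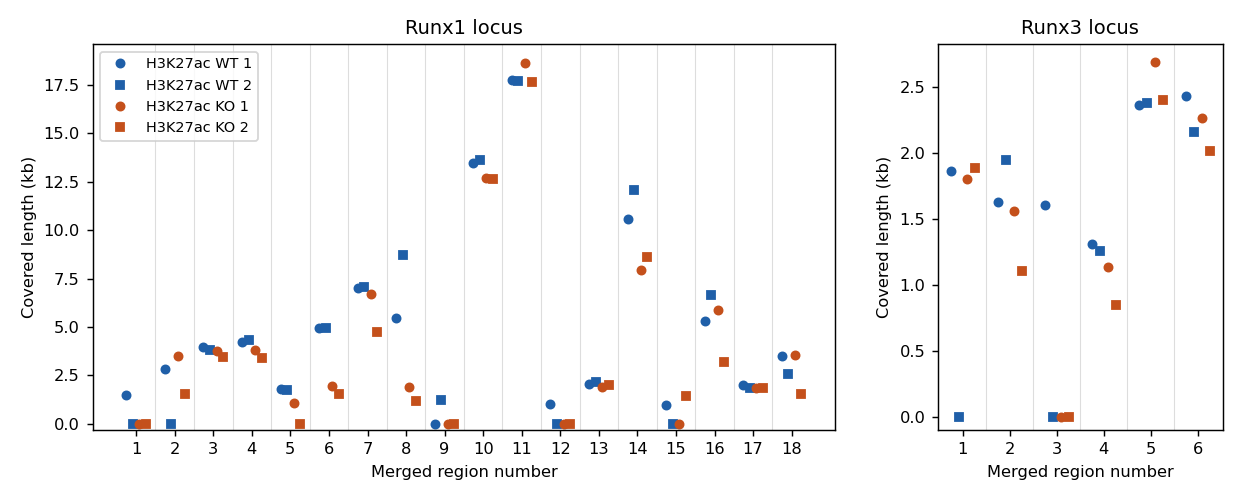
Covered length in kb (vertical axis) of each merged H3K27ac region in the 4 libraries, by region number from low to high coordinate; blue is WT, orange KO, circles replicate 1 and squares replicate 2, and 0 means no called peak. Region 11 is alike in both genotypes, and regions 6, 8 and 14 are lower in both KO libraries.

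Base by base, the KO calls at Runx1 lay almost wholly inside the WT calls, and the reverse held less. Both WT libraries called 79342 bp, of which 71.7% were also called in both KO libraries, against 82.7% over the genome. Both KO libraries called 59001 bp, of which 96.4% were called in both WT libraries, against 79.5% over the genome. Bases called in both WT and in neither KO library numbered 8759, or 8.63% of the bases called in any library, against 3.50% over the genome. Those with the reverse pattern numbered 223, or 0.220%, against 2.89% over the genome. With 1 library left out in turn these numbers ran from 11598 to 19628 and from 375 to 2919, since fewer lists then have to agree.

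Regions called in at least 2 libraries and lying within 12.5 kb of each other were joined into clusters of 3 or more. The Runx1 locus held 2 such clusters, and no region of the Runx3 locus belonged to one. The longer cluster (92696336 to 92770506, 7 regions) ranked 41st of 1591 clusters by summed region length. It was covered over 54620 and 59346 bp in the WT and 46753 and 41166 bp in the KO libraries, a mean of -22.9%. The shorter one (92785856 to 92828375, 4 regions) was covered over 18978 and 20880 bp in the WT and 15698 and 15295 bp in the KO libraries, a mean of -22.2%. In both clusters the KO values lay below the WT values, as they did in 30.4% of all clusters.

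Lower coverage in KO was common in clusters of this size. Among the 188 other clusters with a summed length within 2-fold of the longer Runx1 cluster, the median change was -16.6%. Both KO libraries lay below both WT libraries in 115 of them (61.2%), and 52 (27.7%) lost a larger share of their length than the Runx1 cluster did. Among the 787 clusters of a size like the shorter one the median was -8.94%. Both KO libraries lay below both WT libraries in 292 of them (37.1%), and 19.1% lost a larger share. The 3 clusters of the genome with the most similar covered lengths over the 4 libraries (Euclidean distance of log2 values, 188 clusters compared) were at chr13:91590655-91685686, chr2:101868436-101929934 and chr1:194945530-195031147. Their mean KO coverage differed from WT by -29.1%, -12.0% and -10.1%, and in the last one the genotypes overlapped. The choice of these clusters used the KO values too, so their changes are not an independent comparison.

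**Figure D4:**
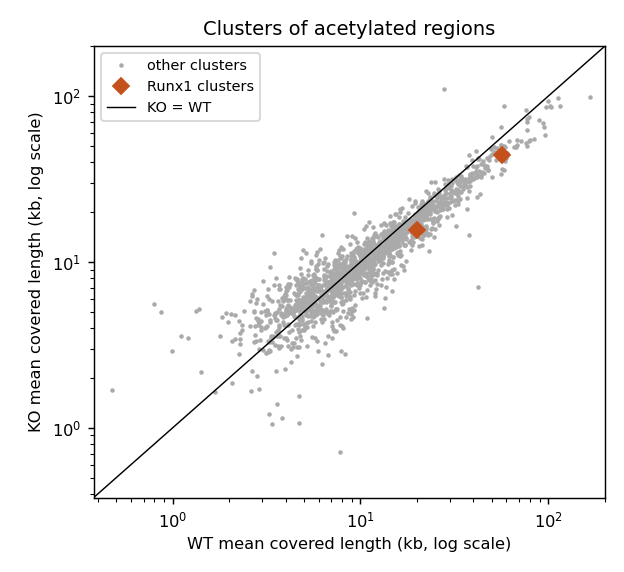
Mean covered length in KO against WT libraries (kb, log axes) for 1588 clusters of acetylated regions, with the 2 Runx1 clusters as orange diamonds and the line of equal length; 3 clusters with a mean of 0 in 1 genotype cannot be shown. Both Runx1 clusters lie below the line, as do most clusters of their length.

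Cohesin was called at many sites along the same stretch in WT cells, and its density over the genome was not computed. Smc1a peaks numbered 25 and 20 at Runx1 and covered 30.6 and 29.1 kb, which is 0.153% and 0.211% of the covered length of each list. Merging the lists gave 28 sites, of which 16 had a peak of both replicates (57.1%, against 52.8% over the genome). Of these 16 reproducible sites, 13 overlapped a region called in both WT libraries, and over the genome this held for 22.2% of 14848 sites. One of the 13 (92827957 to 92829013) met region 16 only through a KO peak and held no base called in WT, so 12 sites lay over bases acetylated in WT. H3K27ac peaks covered 16.1% of this window in each WT library, and the overlap that position alone would give was not computed.

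In the acetylated stretch, region 4 held the site with the highest score of Smc1a replicate 1 and region 10 that of replicate 2. The first (92696728 to 92700628) spanned 3901 bp and had scores of 903.05 and 315.11 in Smc1a replicates 1 and 2. The second (92741019 to 92742527) had scores of 579.20 and 552.25, at the 88.0 and 95.1 percentiles, and was covered by H3K27ac over its full 1509 bp in all 4 libraries. Region 7 held a site at 92715509 to 92716884 with scores of 352.72 and 327.20. A site in region 11 (92759739 to 92763219) scored 114.78 in replicate 1 and 346.36 in replicate 2. The longest site of the locus (92823068 to 92827713, 4646 bp) lay in region 16 and scored 341.23 and 241.75.

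A reproducible site lay in 6 of the 9 narrower Runx1 regions and in 3 of the other 9. The same split over the genome was not computed. Longer regions of the genome more often held a site and were also more often narrower, and a link between Smc1a and narrowing was not tested. Regions 6 and 8, with the largest proportional losses among regions called in all 4 libraries, held no Smc1a peak of either replicate. Region 11 held 2 reproducible sites, and its covered length overlapped between genotypes. Regions 10 and 14 held 3 and 2 reproducible sites and were narrower in both KO libraries. Region 5 held 1 such site and differed by -69.5%, with no peak in KO replicate 2. At Runx1, 7 of the 12 regions called in all 4 libraries held a site (58.3%), against 20.3% over the genome and 70.1% of such regions that were 10000 bp or longer. Smc1a in KO cells was not analysed here, so a loss of Smc1a at these sites was not measured.

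Of the 16 reproducible Smc1a sites at Runx1, 3 did not overlap a region called in both WT libraries. The highest score of Smc1a replicate 1 in the Runx1 window belonged to a site at 92565717 to 92566882, with 1267.54 and 402.93 in the replicates (98.5 and 90.3 percentiles), and the nearest acetylated region was 61973 bp away. At the other edge a site at 93041492 to 93042162 scored 151.69 and 65.72 and lay 105681 bp from the nearest region. A site at 92814611 to 92815701 (scores 279.82 and 263.68) coincided with region 15 (92814579 to 92816039), which had a peak in WT replicate 1 and KO replicate 2 and none in the other libraries. The 12 sites called in a single Smc1a replicate were 8 of replicate 1 and 4 of replicate 2.

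Of the remaining Runx1 regions, 3 were called in a single library. Region 1 (92628856 to 92630353) and region 12 (92778370 to 92779423) had a peak in WT replicate 1 alone, with scores of 61.66 and 60.29, and region 9 (92735911 to 92737150) in WT replicate 2 alone, with a score of 61.00. Region 2 (92639238 to 92643377) was called in all libraries but WT replicate 2, over 2822, 3526 and 1524 bp in WT replicate 1, KO replicate 1 and KO replicate 2. Region 3 (92643661 to 92647653) was called in all 4, over 3980 and 3796 bp in the WT and 3748 and 3442 bp in the KO libraries, with best scores of 1034.43, 602.16, 589.87 and 571.01 in WT replicates 1 and 2 and KO replicates 1 and 2. Region 13 (92785856 to 92788046) was covered over 2070 and 2168 bp in the WT and 1887 and 1992 bp in the KO libraries, and it held a Smc1a site with scores of 282.32 and 175.80.

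**Figure D5:**
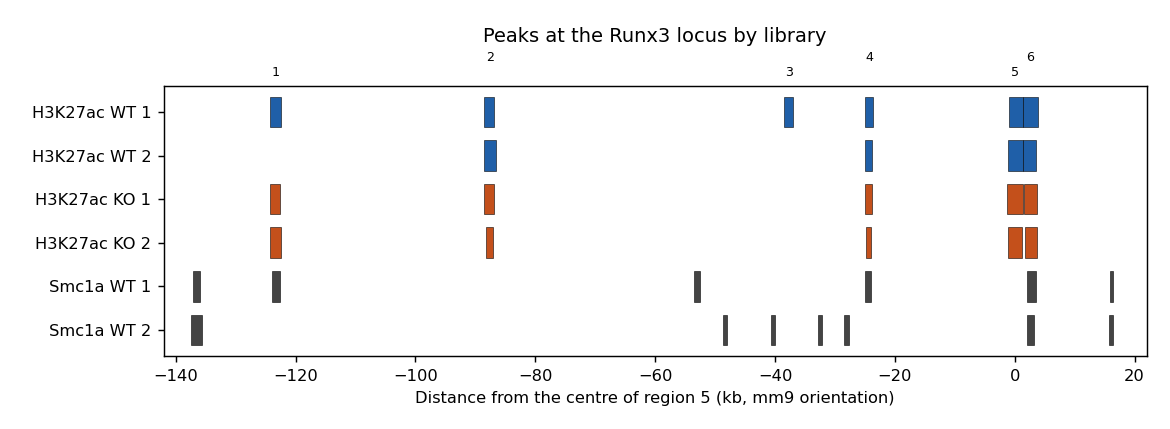
Called peaks at the Runx3 locus, 1 row per library, plotted by distance in kb from the centre of region 5; numbers above mark the 6 merged H3K27ac regions, blue is WT, orange KO and grey Smc1a. Regions 2, 4, 5 and 6 are called in all 4 H3K27ac rows, and the Smc1a rows differ from each other between regions 2 and 4.

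Peaks of H3K27ac took a smaller share of the Runx3 window than of the Runx1 window, and the covered length at Runx3 did not separate the genotypes. The covered length was 11.2 kb in WT replicate 1, 7.74 kb in WT replicate 2, 9.46 kb in KO replicate 1 and 8.26 kb in KO replicate 2. The KO values lay between the WT values. WT replicate 2 had no peak in regions 1 and 3, which WT replicate 1 covered over 1863 and 1608 bp. Of the 4 regions called in all libraries, 3 had a lower mean in KO. Their median change was -15.1%, against -15.9% for such regions at Runx1. The means were 9.48 ± 2.45 kb in WT and 8.86 ± 0.849 kb in KO (SD, n = 2 each; two-sided exact permutation test, p = 1). The direction rested on WT replicate 1, since without it the KO minus WT difference was 1111.5 bp, against -620 bp with all libraries. Both WT libraries called 7290 bp, of which 83.5% were called in both KO libraries. Both KO libraries called 8171 bp, of which 74.5% were called in both WT libraries.

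A pair of adjoining Runx3 regions lay near the high-coordinate end of the window, and region 5 or 6 had the highest score of the locus in each library. Region 5 (134758268 to 134760964) was covered over 2366 and 2382 bp in the WT and 2691 and 2404 bp in the KO libraries, the single region of either locus that was wider in both KO libraries. Its best scores were 1168.31 and 607.14 in WT and 554.17 and 471.64 in KO. Region 6 (134760995 to 134763426) was covered over 2432 and 2158 bp in the WT and 2265 and 2013 bp in the KO libraries, with overlap between the genotypes. Its best scores were 1486.13 and 140.25 in WT and 534.80 and 199.00 in KO.

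The other Runx3 regions had lower scores than region 5 in every library, while region 1 exceeded region 6 in KO replicate 2 (288.73 against 199.00). Region 2 (134671076 to 134673058) was covered over 1628 and 1946 bp in the WT and 1561 and 1105 bp in the KO libraries, and its best scores were 179.21, 102.31, 104.49 and 50.54. Region 4 (134734617 to 134735991) was covered over 1310 and 1258 bp in the WT and 1138 and 848 bp in the KO libraries. Both were narrower in both KO libraries. Region 1 (134635263 to 134637173) was called in all libraries except WT replicate 2, with scores from 190.98 to 288.73, and region 3 (134721081 to 134722688) in WT replicate 1 alone with a score of 124.

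Of 10 merged Smc1a sites at Runx3, 3 were reproducible, against 52.8% of sites over the genome. Of these 3, 1 overlapped a region called in both WT libraries, against 22.2% over the genome. That site (134761589 to 134763143) lay in region 6 and scored 919.57 and 158.87. The highest score of replicate 1 in this window, 1434.23 (99.1 percentile), belonged to a site at 134622191 to 134623989 with 282.90 in replicate 2, 11273 bp from the nearest region. The third reproducible site (134775420 to 134776089) scored 395.30 and 212.08. The highest score of replicate 2, 842.58 (98.5 percentile), belonged to a site at 134731126 to 134731959 that replicate 1 did not call. In turn the site at 134706135 to 134707121 scored 596.32 (88.6 percentile) in replicate 1 and was not called in replicate 2. These sites between regions 2 and 4 were thus high in 1 list and missing from the other.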

How the data were processed

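Peak lists of 4 H3K27ac and 2 Smc1a libraries were used. The aligner was Bowtie 0.12.8 and the build mm9, per the submitters' processing notes. The deposited lists give start, end and a score per peak, with MACS peak names per the file contents and 1 list per library. The scale of the score, and the version, settings, matched input and read filters behind the calls, were not given in the sources used. Positions are printed counted from 1.

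Peaks of the 4 H3K27ac libraries that overlapped or touched were merged, a library held a region with 1 bp of overlap, and covered lengths were clipped to the windows. WT and KO libraries were set against each other by exact permutation (two-sided), with a smallest p of 0.3333. Python 3.11.15, numpy 2.4.6 and pandas 2.3.3 were used. Interval functions were tested on simulated data. No identical peak was shared by libraries made with 1 antibody. Promoter windows came from a RefSeq table (GRCm38.p6) by gene symbol, and Runx1, Runx2 and Runx3 all matched.

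The loci and lists were chosen with earlier results of these data known. At each locus the rule named the 5 longest regions, the regions of 1 genotype, the 3 largest differences in each direction among regions without overlap between the groups, and the Smc1a sites in acetylated regions (if over 10, the 5 with the highest scores in each list). The other regions are given because each is a member, and single sites outside the rule were chosen after their values were seen. The lists of T cell genes and of cell type markers were not run, since no mm9 annotation was used. Clusters within 2-fold length and regions of at least 5000 bp were chosen after seeing the data.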

Additional observations from a re-analysis of the deposited data

How the results depend on the processing

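Across 11 results and 81 alternatives, 60 kept their direction or stayed within 1.5 times the reported count or 1 SD, 20 moved and 1 reversed. The 60 include runs with the replicate number as a block, which equal the reported value by construction. They also include runs at Runx1 that could not change direction, named next. The lower KO coverage at Runx1 kept its direction under every alternative run, from -13330 to -23623 bp with 1 library left out in turn (-18476.5 bp with all). Leaving out 1 library, the replicate block and replicates 1 alone could not change the direction, since both KO values lay below both WT values. The difference was -17948.5 bp with the upper 75% of each list by score and -24737 bp with equal numbers of peaks. It was -17406 bp with the upper 50% and -13368 bp for replicates 1 alone, both chosen after seeing the data. No p could pass a threshold in this design.

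At Runx3 the covered length difference ran from -2351.5 to 1111.5 bp with 1 library left out, and turned positive without WT replicate 1. It was -2317 bp with the upper 75% of each list by score and -2165.5 bp with equal numbers of peaks. The peak number difference at Runx1, -2.5 as reported, ran from -5 to 0 with 1 library left out and was -5.5 with equal numbers of peaks. At Runx3, where it was 0, it was -1.5 peaks with the upper 75% and with equal numbers, and -0.124 per 10000 peaks after scaling to the list. Regions called in WT only, none as reported, numbered 2 with the upper 75%, 4 with equal numbers, 2 with an overlap of at least 50% and 0 to 3 with 1 library left out. Regions called in KO only numbered 0 to 2 with 1 library left out. Narrower regions at both loci numbered 11, but 7 with the upper 75%, 6 with merging within 1000 bp and 11 to 16 with 1 library left out. Wider regions numbered 1, but 0 with that merging and 1 to 4 with 1 library left out. With 1 library left out fewer lists have to agree or separate, so all these region counts can rise. Shares over the genome under these alternatives were not computed. Reproducible Smc1a sites, 16 at Runx1 and 3 at Runx3, became 20 and 7 peaks without Smc1a replicate 1 and 25 and 6 without replicate 2, since 1 list then suffices. The other causes were not tested.

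With the replicate number as a block, the mean differences are the same by construction, -18476.5 bp at Runx1 (exact sign-flip permutation p = 0.5, the smallest that 2 pairs allow) and -620 bp at Runx3 (exact p = 1). The labels give the numbers no shared source, and deviations of same-numbered libraries had a correlation of 0.0624 over 12129 regions. The overlap alternative does not apply to narrower and wider regions. Depth limits all calls in an unknown measure, since the lists hold no reads.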
